A study of Mus musculus with 9 samples.

Results

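The mitotic spindle and G2/M module holds 38 genes whose products untangle and coat chromosomes, build the spindle, watch over chromosome attachment and split the cell. They were chosen as a list of names, matched by symbol in the array's probe annotation to probesets with exactly 1 symbol. All 38 matched, 1 probeset each, among 30142 genes measured. Signals were recorded in LSK cells, the fraction of mouse bone marrow that lacks markers of mature blood lineages and carries Sca-1 and c-Kit, where stem cells and multipotent progenitors of the blood are found. The 4 knockout mice (KO) had the genotype Abi1(-/-);Tg (Mx1-cre(+)) and the 5 wild-type (WT) mice Abi1(fl/fl);Tg (Mx1-cre(-)). Mice of both groups received 3 poly(I:C) injections within a week at 8 to 9 weeks of age, and marrow, in which recombination had been checked by PCR, was taken at 12 to 14 weeks. Poly(I:C) turns on the interferon-responsive Mx1 promoter, which is active in blood cells and also outside the blood. Cre was present in KO mice only, so an effect of Cre cannot be told apart from that of losing Abi1. Each array held amplified RNA of 1 mouse, made from 5 ng of total RNA.

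Most genes of this module are transcribed mainly late in the cell cycle and are low in resting cells, though some, such as Ccna2, are already active in S phase. In a mixed population their summed signal thus follows the share of dividing cells, those in G2 and mitosis most of all. Many of them carry a cell cycle homology region, a short promoter element bound by the MuvB complexes: with the DREAM proteins in resting cells, where it holds the gene off, and with B-MYB and FOXM1 in G2, where it turns the gene on. CCAAT boxes, bound by NF-Y, usually lie close by. Most stem cells in adult marrow rest outside the cycle, while many multipotent progenitors of the LSK gate divide. In bulk RNA, fewer dividing cells and less mitotic RNA in each dividing cell cannot be told apart.

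The promoter windows of the 6 members with the brightest signal that hold a cell cycle homology region are shown because they carry the elements that members of this module share. Each window runs from 250 bases before to 50 bases after a transcription start, read 5′ to 3′ on the gene's strand, from RefSeq on build GRCm38.p6. Capitals mark TTTGAA and TTCGAA, forms of the cell cycle homology region, and CCAAT, on either strand (reverse forms TTCAAA and ATTGG, while TTCGAA reads alike on both).
Mki67, chr7:135716330-135716629, minus strand: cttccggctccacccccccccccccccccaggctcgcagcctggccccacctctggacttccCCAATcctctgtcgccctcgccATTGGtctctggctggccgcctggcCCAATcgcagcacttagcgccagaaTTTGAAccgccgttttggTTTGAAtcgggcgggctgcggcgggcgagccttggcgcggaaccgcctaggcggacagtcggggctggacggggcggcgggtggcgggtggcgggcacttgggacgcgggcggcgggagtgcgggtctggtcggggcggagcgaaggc
Bub3, chr7:131560120-131560419, plus strand: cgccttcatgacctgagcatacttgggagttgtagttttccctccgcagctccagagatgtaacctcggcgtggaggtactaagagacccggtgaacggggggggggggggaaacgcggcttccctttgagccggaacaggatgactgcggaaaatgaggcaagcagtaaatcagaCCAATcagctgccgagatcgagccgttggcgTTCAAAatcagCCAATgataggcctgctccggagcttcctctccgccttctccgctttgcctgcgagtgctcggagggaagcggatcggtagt
Top2a, chr11:99024140-99024439, minus strand: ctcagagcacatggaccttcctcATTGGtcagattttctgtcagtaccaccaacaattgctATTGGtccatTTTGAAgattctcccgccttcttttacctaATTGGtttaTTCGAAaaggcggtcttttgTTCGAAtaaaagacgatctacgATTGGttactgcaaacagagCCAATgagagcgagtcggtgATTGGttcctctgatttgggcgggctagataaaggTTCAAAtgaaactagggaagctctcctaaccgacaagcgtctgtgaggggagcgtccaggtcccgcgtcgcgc
Plk1, chr7:122159185-122159484, plus strand: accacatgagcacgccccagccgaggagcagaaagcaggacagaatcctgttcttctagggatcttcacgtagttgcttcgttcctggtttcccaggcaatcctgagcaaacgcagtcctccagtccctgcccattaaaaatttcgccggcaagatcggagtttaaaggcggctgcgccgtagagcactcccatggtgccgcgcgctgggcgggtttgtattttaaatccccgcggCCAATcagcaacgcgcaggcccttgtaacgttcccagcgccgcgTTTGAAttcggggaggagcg
Kif11, chr19:37376132-37376431, plus strand: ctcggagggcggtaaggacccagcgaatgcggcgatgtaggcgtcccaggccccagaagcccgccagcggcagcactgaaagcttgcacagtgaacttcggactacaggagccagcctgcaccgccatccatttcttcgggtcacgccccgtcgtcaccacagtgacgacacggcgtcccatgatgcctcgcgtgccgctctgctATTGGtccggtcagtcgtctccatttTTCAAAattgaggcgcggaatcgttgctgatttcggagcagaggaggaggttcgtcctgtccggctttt
Cdc20, chr4:118437294-118437593, minus strand: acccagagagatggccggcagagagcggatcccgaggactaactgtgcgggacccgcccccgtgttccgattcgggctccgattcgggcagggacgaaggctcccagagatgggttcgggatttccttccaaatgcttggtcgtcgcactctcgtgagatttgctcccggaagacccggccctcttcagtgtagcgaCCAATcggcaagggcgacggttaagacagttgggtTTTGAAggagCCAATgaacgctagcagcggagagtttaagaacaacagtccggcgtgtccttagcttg

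Positions count from the start, negative before it. In Mki67 TTTGAA matches began at -116 and -98, downstream of 3 CCAAT matches. Top2a, which encodes the topoisomerase that untangles sister chromatids, held 6 CCAAT, 2 TTTGAA and 2 TTCGAA matches. The TTTGAA match began at -18 in Cdc20, at -43 in Bub3, at -19 in Kif11 and at 31 in Plk1. RefSeq windows were found for 33 of the 38 members, with 36 windows in all. Either form of the cell cycle homology region stood in 28 of these 36 windows (77.8%), and in 19.2% of all 32851 windows. CCAAT stood in 75.0% of member windows, against 37.4% of all, and both elements together in 69.4%, against 7.52% of all. Within 100 bases before to 50 after the start, a form of the cell cycle homology region was found in 75.0% of member windows and in 8.59% of all. Of the 33 genes, Cenpe and Cenpi held CCAAT alone, and Birc5, Mad2l1, Melk, Nuf2, Nusap1 and Plk4 held no match in these windows. A match is a description of the letters and not evidence of binding in these cells.

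The LSK gate was checked on its markers. Kit read 13.82, 14.58, 14.53 and 14.57 on the log2 scale in KO replicates 1 to 4, against 14.70, 14.75, 14.39, 14.78 and 14.74 in WT replicates 1 to 5. Cd34, Cd48, Flt3 and Meis1 had signals of at least 10.81 in every array, Slamf1 of at least 8.63 and Procr of at least 6.56, against background levels of 5.29 to 5.61. Background is the level that 95% of 1524 genes of olfactory and vomeronasal receptors stay under in an array. Ly6a, the gene of Sca-1, was not analysed here. Abi1 had signals of 5.59 to 6.11 in KO and 11.49 to 11.65 in WT, a difference of -5.73 (limma adjusted p = 7.42e-08). KO replicate 1 and WT replicate 5 stood apart from the rest, with median correlations across genes of 0.986 and 0.989, where each remaining array had 0.993 to 0.996. Counts and medians are given with and without these arrays for the module and its larger classes. Single differences without KO replicate 1 are given for some members only.

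All 38 members lay above background in all 9 arrays, with values of 6.86 to 16.08 and gene means of 7.33 (Melk) to 15.64 (Mki67). Abi1 in KO, at 5.59 to 6.11, also lay above background, so passing this level does not show transcription. Negative-control probesets had array medians of 6.20 to 6.89, higher than this background. A level here is a probeset's log2 signal, and levels of different probesets are not amounts of transcript that can be ranked.

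Mean signals of mitotic genes were lower in KO in 33 of 38 members (86.8%), where 35.8% of all 30142 genes and 45.5% of the genes above background had lower means. The median difference over the members was -0.26 on the log2 scale, against 0.03 over all genes, and single differences ran from -0.53 (Bub1) to 0.22 (Ccnb2). No member passed limma's adjusted p of 0.05 (smallest adjusted p = 0.786), a mark that 1 gene, Abi1, or 0.00332% of all genes passed. At an unadjusted p under 0.05, 4 members (10.5%) were lower and 0 higher, where 1.19% of all genes and 1.91% of genes above background were lower, and 3.82% and 4.99% were higher. The groups overlapped in all 38 members, while every KO array lay below every WT array in 0.176% of all genes. Ranges within a genotype exceeded the difference in most members. A range over 4 or 5 arrays tends to exceed a difference of means where groups overlap, and the share of all genes was not counted. The range over the 5 WT arrays exceeded the difference between genotypes in 37 of 38 members, and the range over the 4 KO arrays in 33 of 38. The size of the differences depended on single arrays. Without KO replicate 1 the median difference was -0.169, with 31 members lower, where 13656 of all 30142 genes were lower. Without WT replicate 5, 35 members and 11539 of all genes were lower. Without both arrays the median difference was -0.24, with 35 members and 14756 of all genes lower. As any single array was left out, 30 to 35 members were lower. A difference moved by over 1.5 times, or turned its sign, in 18 members without KO replicate 1, in 19 without WT replicate 2 and in 17 without WT replicate 3. With WT replicates 2 and 3 both left out, 24 members were lower and the median was -0.038, where 10661 of all 30142 genes were lower. That pair was chosen because it read highest, so leaving it out had to move KO minus WT upward, and no p-value is given for it.

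**Figure D1:**
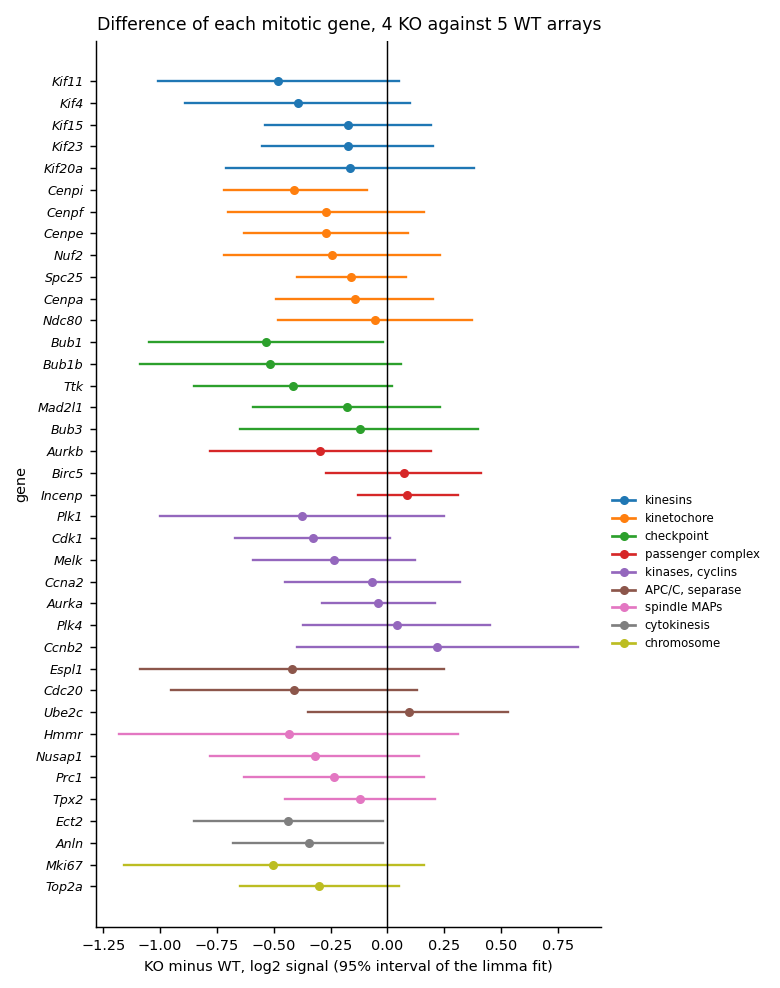
KO minus WT difference of the log2 signal of each of 38 mitotic genes, grouped by function, with the 95% interval of the limma fit over 4 KO and 5 WT arrays. Of the 38 points 33 lie left of 0, and 34 of the intervals hold 0.

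The same arrays were high or low for member after member. In 31 of 38 members (81.6%) WT replicates 2 and 3 were both above each of the other 7 arrays, as they were in 4.57% of the 16137 genes above background. The 7 exceptions were Kif23, Cenpi, Incenp, Ccnb2, Plk4, Espl1 and Ube2c. KO replicate 1 was the lowest array in 18 members (47.4%), against 23.8% of genes above background, and WT replicate 5 in 10 (26.3%), against 25.3%. Averaged over the 38 members, the deviation from each gene's mean was -0.37, -0.13, 0.07 and -0.11 in KO replicates 1 to 4, against -0.13, 0.43, 0.41, 0.02 and -0.21 in WT replicates 1 to 5. Thus 3 of the 5 WT arrays lay within the range of the KO arrays. By genotype it averaged -0.13 ± 0.18 in KO (SD, n = 4), against 0.11 ± 0.30 in WT (SD, n = 5). The median range over arrays was 0.49 in KO and 0.78 in WT. It was 0.27 in KO without replicate 1 and 0.30 in WT without replicates 2 and 3. A range grows with the number of arrays and cannot widen as arrays are left out. As WT replicates 2 and 3 were chosen for being high, a smaller range without them was built in.

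**Figure D2:**
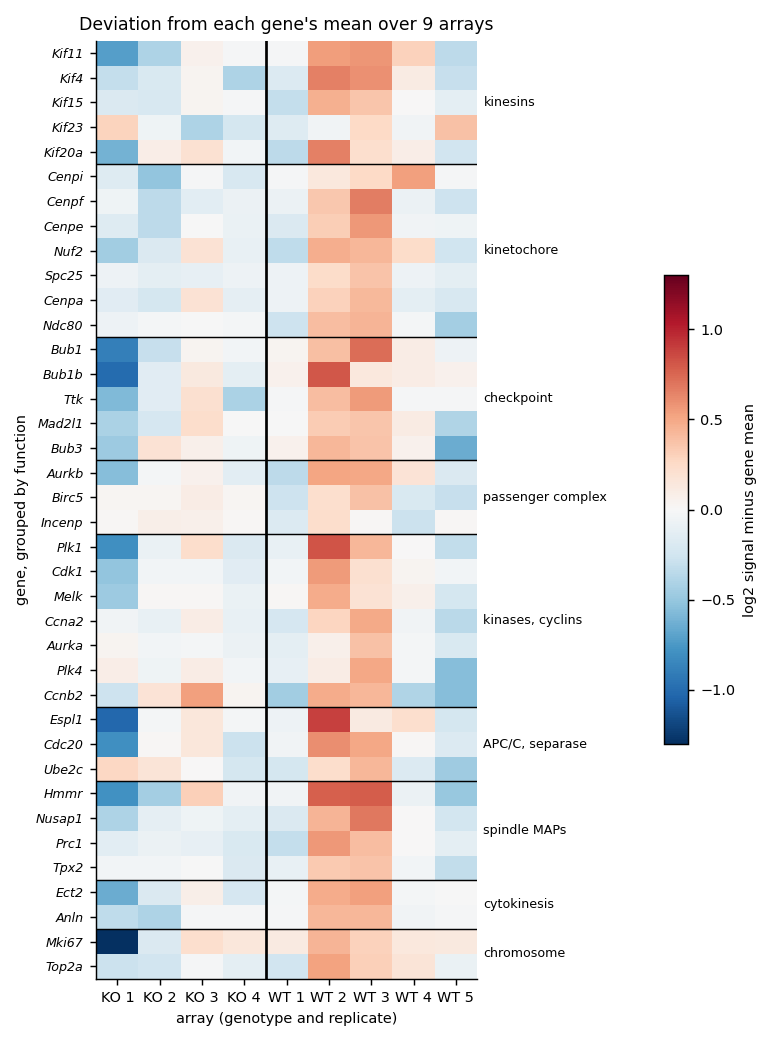
Log2 signal of each mitotic gene minus its mean over the 9 arrays, KO arrays left of the thick line and WT arrays right of it, with genes grouped by function. WT 2 and WT 3 are both above the other 7 arrays in 31 of 38 genes, and KO 1 is the lowest array in 18, Mki67 among them.

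Pairs of members correlated over the 9 arrays with a median Pearson r of 0.73 and a median Spearman rho of 0.68 (703 pairs, 96.0% of them positive). All pairs share the same 9 arrays. The median over all pairs of genes above background was 0.02, with 51.6% positive. Without KO replicate 1 and WT replicate 5 the members' median r was 0.77, and without WT replicates 2 and 3, the pair chosen for being high, it was 0.32 with 72.8% positive.

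Mki67, the proliferation marker gene whose protein coats mitotic chromosomes, was set against each of the other 37 members. The highest r was that of Bub1b, with r = 0.916 (exact permutation p = 0.000182) and rho = 0.895 (exact permutation p = 0.00211), or 0.00653 and 0.013 after Benjamini-Hochberg adjustment over the 37 pairs. Without KO replicates 1 and 2, the arrays farthest from the Mki67 median, its r was 0.882. The correlation r passed an adjusted p of 0.05 for 15 of the 37 genes and rho for 20, by the same exact permutation tests. Correlations with Mki67 were not counted for genes outside the module, so no share of all genes stands beside these counts. KO replicate 1, the lowest array for Mki67, was also lowest in 23.8% of genes above background. Median r was 0.56 over 9 arrays and 0.82 without KO replicates 1 and 2, so pairs with Mki67 depended on these 2 arrays. For Ube2c r was -0.241 over all 9 arrays (exact permutation p = 0.591, adjusted p = 0.663) and 0.812 without them. Kif23 had the lowest r, -0.38 (exact permutation p = 0.358, adjusted p = 0.486), and 0.0577 without them.

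Kinesins walk along microtubules. In KO all 5 in the list had lower means, by a median of -0.17, and 0 passed at an unadjusted p under 0.05. Without KO replicate 1 the median was -0.30 with 4 of 5 lower, and without WT replicate 5 it was -0.24, with Kif11 and Kif4 lower at an unadjusted p under 0.05. Kif11, the motor that pushes the spindle poles apart, read 11.45, 11.76, 12.22 and 12.15 in KO replicates 1 to 4, against 12.15, 12.71, 12.74, 12.46 and 11.82 in WT replicates 1 to 5. The KO arrays all lay below WT replicates 2, 3 and 4, and KO replicates 3 and 4 overlapped with WT replicates 1 and 5. Its difference was -0.48 (SE 0.23, 95% interval -1.01 to 0.05, limma adjusted p = 0.786), a signal 0.716 times that of WT. Kif20a, which carries passenger proteins to the spindle midzone, had 8.78, 9.48, 9.59 and 9.36 in KO, against 9.05, 10.05, 9.61, 9.48 and 9.14 in WT. Its difference of -0.16 was 0.011 without KO replicate 1. Kif4, a chromosome-bound motor, differed by -0.39 and Kif15, which helps Kif11 at the poles, by -0.17. Kif23, the motor of the central spindle, ran unlike the rest: its highest arrays were WT replicate 5 (11.64) and KO replicate 1 (11.55), the arrays that stood apart, and its lowest was KO replicate 3 (10.86).

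**Figure D3:**
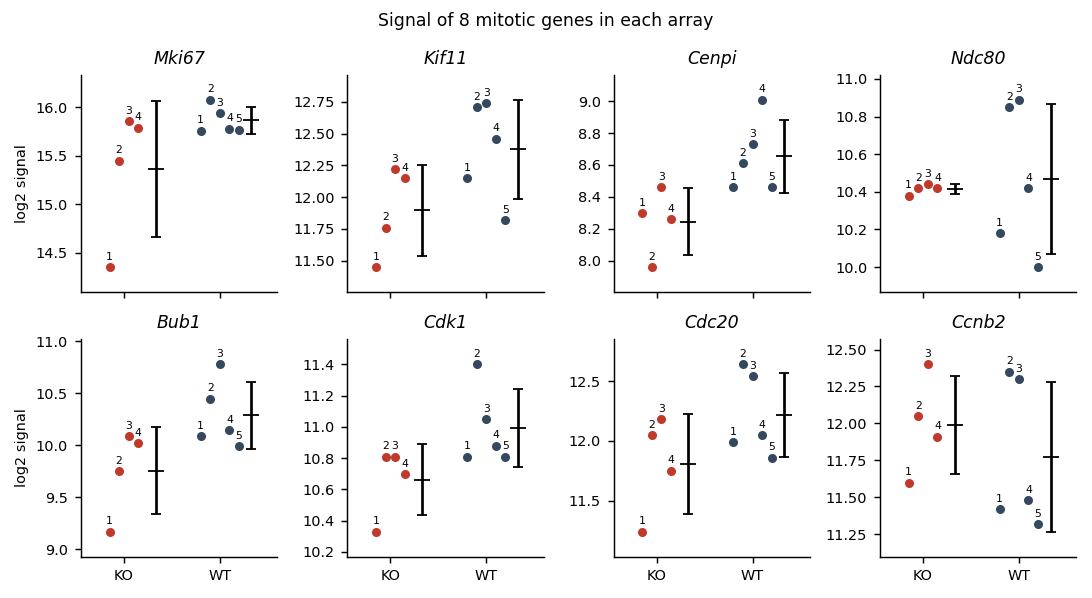
Log2 signal of 8 mitotic genes in each of 4 KO and 5 WT arrays, with replicate numbers beside the points and the mean ± SD of each group at the right. Axes differ between panels. WT 2 and WT 3 are high in most panels, KO 1 is the lowest point for Mki67, Kif11, Bub1, Cdk1 and Cdc20, and the groups overlap in all 8.

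The kinetochore is the protein plate on the centromere that grips microtubules. Means of all 7 members were lower in KO, by a median of -0.24, and Cenpi was lower at an unadjusted p under 0.05. Without KO replicate 1 the median was -0.17 and without WT replicate 5 it was -0.31, with all 7 lower in each. Cenpi, a subunit of the constitutive centromere network, had 8.30, 7.96, 8.46 and 8.26 in KO, against 8.46, 8.61, 8.73, 9.01 and 8.46 in WT. No KO array was above any WT array, and KO replicate 3 tied with WT replicates 1 and 5. Its difference of -0.41 (SE 0.14, 95% interval -0.72 to -0.09) had the smallest unadjusted limma p of the module, 0.0169, with an adjusted p of 0.786 and an exact permutation p of 0.0476. The unadjusted p of Cenpi was under 0.05 in all 18 other settings that did not leave out both WT replicates 2 and 3. With both left out it was not under 0.05, with means of 8.25 in KO and 8.64 in the fewer WT arrays. Cenpi is also 1 of the 7 members in which these arrays were not both on top. Ndc80, which makes the microtubule contact together with Nuf2 and Spc25, had 10.38, 10.42, 10.44 and 10.42 in KO, against 10.18, 10.85, 10.89, 10.42 and 10 in WT. The KO arrays fell within 0.06 of each other and inside the WT range. The difference of Ndc80 was -0.053 (95% interval -0.48 to 0.37). Nuf2 differed by -0.24, or -0.14 without KO replicate 1, and Spc25 by -0.16. The centromeric histone gene Cenpa differed by -0.14, the kinetochore motor gene Cenpe by -0.27 and Cenpf, of the outer plate, by -0.27.

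The spindle assembly checkpoint holds back anaphase until every chromosome is attached. In KO the means of all 5 members were lower, by a median of -0.41. Without KO replicate 1 the median was -0.28 with 4 of 5 lower, and without WT replicate 5 it was -0.46 with 5 lower. Bub1, a kinase that recruits the other checkpoint proteins to the kinetochore, had 9.17, 9.75, 10.09 and 10.02 in KO, against 10.09, 10.45, 10.78, 10.15 and 9.99 in WT. KO replicate 1 was lowest, and KO replicates 3 and 4 lay among WT replicates 1, 4 and 5. Its difference was -0.53 (SE 0.23, 95% interval -1.05 to -0.02, unadjusted p = 0.0443 and adjusted p = 0.786 in limma), or 0.690 times the WT signal. Without KO replicate 1 the difference of Bub1 was -0.34, and its unadjusted p was 0.05 or more in 8 of 18 other settings, quantile normalization and array weights among them. Bub1b, which encodes the checkpoint protein BUBR1, differed by -0.52, and by -0.28 without KO replicate 1. Its KO replicate 1 read 8.28 and KO replicates 2 to 4 read 9.14 to 9.41, against 9.34 to 10.09 in WT. Ttk, the kinase MPS1 that starts the checkpoint signal, differed by -0.41 and Mad2l1, which encodes the inhibitor MAD2, by -0.18 (-0.078 without KO replicate 1). Bub3, a partner of BUB1 and BUBR1, had 13.41, 14.07, 13.95 and 13.83 in KO, against 13.94, 14.31, 14.25, 13.94 and 13.24 in WT. Here the lowest array was WT replicate 5, and the difference was -0.12 (95% interval -0.65 to 0.40), or 0.014 without KO replicate 1.

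The chromosomal passenger complex corrects faulty attachments and later marks the cleavage site. Of its 3 members Aurkb had a lower mean in KO, and Birc5 and Incenp had higher ones. Aurkb, the kinase of the complex, had 10.04, 10.56, 10.65 and 10.45 in KO, against 10.25, 11.10, 11.09, 10.77 and 10.40 in WT. Only KO replicate 1 lay below all WT arrays, and the difference was -0.30 (95% interval -0.78 to 0.19, limma adjusted p = 0.786), or -0.17 without KO replicate 1. Incenp, the scaffold of the complex, had 10.45, 10.51, 10.50 and 10.45 in KO, against 10.25, 10.66, 10.45, 10.15 and 10.45 in WT. The KO arrays sat inside the WT range, with a difference of 0.086 (95% interval -0.13 to 0.31). Birc5, which encodes survivin, had 8.78, 8.78, 8.85 and 8.78 in KO, against 8.49, 8.98, 9.14, 8.56 and 8.46 in WT. KO arrays lay between WT replicates 2 and 3, which were higher, and the other WT arrays, which were lower, and the difference was 0.072. Equal values such as these 3 KO signals of 8.78 recur in the deposited table, and they shrink the measured spread.

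Among the mitotic kinases and cyclins 5 of 7 members were lower on average in KO, with a median of -0.07. The median was -0.06 with 5 lower without KO replicate 1, and -0.16 with 6 lower without WT replicate 5. Cdk1, the kinase that drives entry into mitosis, had 10.33, 10.81, 10.81 and 10.70 in KO, against 10.81, 11.40, 11.05, 10.88 and 10.81 in WT. No KO array exceeded the lowest WT value, and 4 arrays shared the value 10.81. Its difference was -0.33 (SE 0.15, 95% interval -0.67 to 0.01, unadjusted p = 0.0584 and adjusted p = 0.786 in limma), and -0.22 without KO replicate 1. Ccnb2, a B-type cyclin and partner of CDK1, had 11.60, 12.05, 12.40 and 11.91 in KO, against 11.42, 12.35, 12.30, 11.48 and 11.32 in WT. The highest array of all was KO replicate 3, every KO array lay above WT replicates 1, 4 and 5, and the difference was 0.22 (95% interval -0.40 to 0.84). The difference of Ccnb2 was 0.35 without KO replicate 1. Plk1, which acts from mitotic entry to cytokinesis, differed by -0.38 and Melk, a kinase of dividing progenitors, by -0.24. These were -0.18 and -0.12 without KO replicate 1. Smaller differences were found for Ccna2, the S and G2 cyclin gene (-0.068), for Aurka, the kinase of the spindle poles (-0.042), and for Plk4, which starts centriole duplication (0.040).

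Exit from mitosis needs the anaphase-promoting complex, a ubiquitin ligase, and separase, the protease that cuts cohesin. Cdc20, the activator of the ligase, had 11.24, 12.05, 12.18 and 11.75 in KO, against 11.99, 12.64, 12.54, 12.05 and 11.86 in WT. KO replicates 2 and 3 lay among WT replicates 1, 4 and 5 or above them, and the difference was -0.41 (SE 0.23, 95% interval -0.95 to 0.13, limma adjusted p = 0.786), or -0.22 without KO replicate 1. Espl1, the separase gene, differed by -0.42, with KO replicate 1 at 7.94 and the other KO arrays at 8.93 to 9.11, against 8.73 to 9.85 in WT. Its difference was -0.16 without KO replicate 1. Ube2c, the ubiquitin-conjugating enzyme of the ligase, had 11.29, 11.19, 11.03 and 10.79 in KO, against 10.79, 11.25, 11.46, 10.85 and 10.56 in WT. KO replicate 1 was the highest KO array here, and the difference was 0.093 (95% interval -0.35 to 0.53), or 0.021 without KO replicate 1 and -0.012 without WT replicate 5.

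Proteins that bundle and nucleate spindle microtubules were lower on average in KO in 4 of 4 members, by a median of -0.28. Without KO replicate 1 the median was -0.24 and without WT replicate 5 it was -0.36, with 4 of 4 lower in each. Nusap1, which bundles microtubules near chromosomes, had 11.60, 11.88, 11.94 and 11.87 in KO, against 11.81, 12.44, 12.69, 12.01 and 11.76 in WT. The KO arrays overlapped with WT replicates 1 and 5, and the difference was -0.32 (95% interval -0.78 to 0.14). Tpx2, which activates Aurora A and starts microtubules around chromatin, had 11.44, 11.44, 11.47 and 11.29 in KO, against 11.38, 11.82, 11.85, 11.44 and 11.16 in WT. Its difference was -0.12 (95% interval -0.45 to 0.21). Hmmr, a spindle pole protein gene, had the widest span of the 4, with 9.76 to 10.85 in KO and 10.05 to 11.33 in WT, and differed by -0.43, or -0.25 without KO replicate 1. Prc1, the bundler of the central spindle, differed by -0.24.

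Both cytokinesis genes were lower in KO at an unadjusted p under 0.05. Anln, which encodes the actin-binding ring protein anillin, had 8.54, 8.47, 8.85 and 8.85 in KO, against 8.85, 9.30, 9.30, 8.82 and 8.85 in WT. KO replicates 3 and 4 equalled WT replicates 1 and 5. The difference was -0.35 (SE 0.14, 95% interval -0.68 to -0.02, unadjusted p = 0.0419 and adjusted p = 0.786 in limma). Ect2, the exchange factor that activates RhoA at the cleavage site, had 9.64, 10.10, 10.36 and 10.07 in KO, against 10.26, 10.77, 10.82, 10.26 and 10.28 in WT. Only KO replicate 3 reached into the WT range, and the difference was -0.44 (SE 0.18, 95% interval -0.85 to -0.02, unadjusted p = 0.0422 and adjusted p = 0.786 in limma). For each of the pair the unadjusted p was 0.05 or more in 8 of 18 other settings, quantile normalization, array weights and the fit without KO replicate 1 among them.

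The chromosome proteins closed the list. Mki67 had 14.35, 15.45, 15.86 and 15.79 in KO, against 15.76, 16.08, 15.94, 15.78 and 15.77 in WT. KO replicates 3 and 4 lay among the WT arrays, and KO replicates 1 and 2 were the lowest arrays. It averaged 15.36 ± 0.70 in KO (SD, n = 4), against 15.87 ± 0.14 in WT (SD, n = 5), a difference of -0.50 (SE 0.29, limma adjusted p = 0.786). The difference of Mki67 was -0.17 without KO replicate 1. Top2a had 12.63, 12.66, 12.89 and 12.78 in KO, against 12.66, 13.43, 13.22, 13.07 and 12.82 in WT. All KO arrays lay below WT replicates 2, 3 and 4 and overlapped with WT replicates 1 and 5, and the difference was -0.30 (95% interval -0.65 to 0.05).

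**Figure D4:**
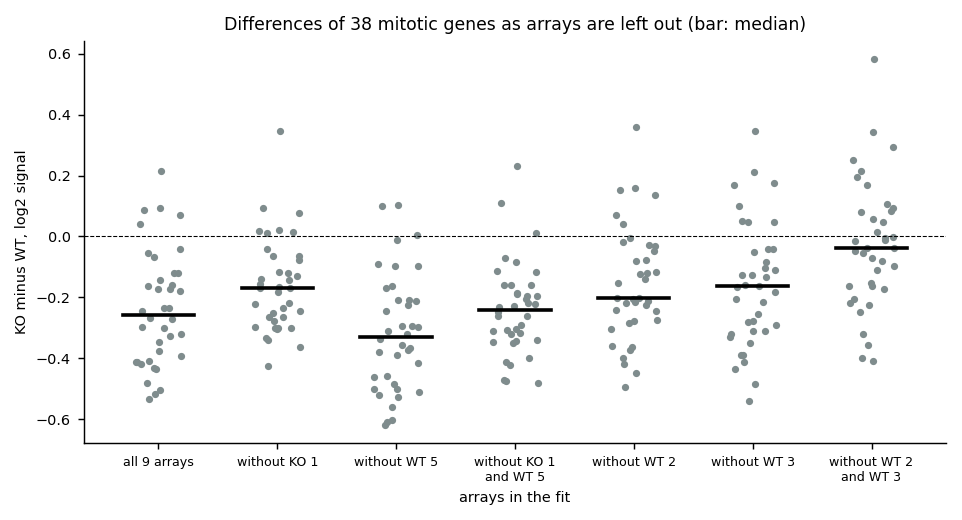
KO minus WT differences of the log2 signal of 38 mitotic genes (points) and their median (bar) with all 9 arrays and with the named arrays left out. The median is -0.257 with all arrays, -0.169 without KO 1 and -0.038 without WT 2 and WT 3, which were chosen because they read highest.

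Markers of other cell types moved beside these values. In KO replicates 1 and 2 the mean deviation of 12 mature neutrophil genes, 8 of them above background, was 1.42 and 1.31, with all 12 genes higher on average in KO (64.2% of all genes were), and it was -0.49 and -0.16 in KO replicates 3 and 4, against -0.80 to 0.18 in WT. Differences of the 12 genes ran from 0.02 (Itgam) to 2.96 (S100a8), so the mean deviation does not stand for each gene. S100a8 had 12.58, 10.87, 6.52 and 7.48 in KO, against 4.86 to 8.83 in WT. Itgam had 7.30, 7.96, 7.09 and 7.62 in KO, against 7.26 to 7.68 in WT. The 17 erythroid genes deviated by -0.44 to 0.69 in KO, against -0.33 to 0.71 in WT replicates 1 to 4 and -2.12 in WT replicate 5. In WT replicates 2 and 3 the neutrophil genes deviated by -0.43 and 0.18 and the erythroid genes by 0.71 and 0.54. Granulocyte-monocyte progenitor genes were higher on average in KO in 15 of 16, with a median difference of 0.48 with or without KO replicate 1, and 6 had an unadjusted p under 0.05. Their mean deviation was 0.10, 0.58, 0.00 and 0.33 in KO replicates 1 to 4, against -0.56, -0.31, 0.27, -0.08 and -0.34 in WT replicates 1 to 5. Megakaryocyte and platelet genes were higher in KO in 12 of 12, deviating by 0.15 to 0.49 in KO, against -0.13 to 0.43 in WT replicates 1 to 4 and -1.54 in WT replicate 5. Lymphoid genes, 8 of 18 above background, were higher in KO in 15, 6 of them at an unadjusted p under 0.05, and deviated by 0.02 to 0.20 in KO, against -0.18 to 0.02 in WT. At an unadjusted p under 0.05, 2 of the 12 neutrophil genes, 1 of the 12 megakaryocyte and platelet genes and 0 of the 17 erythroid genes were higher in KO. Of all genes 64.2% had higher means in KO. At that p 3.82% of all genes and 4.99% of genes above background were higher. No gene of these lists passed limma's adjusted p of 0.05, except Igll1, a lymphoid gene, when arrays were weighted. The part of these markers in the mitotic values was not tested.

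A wider list of 115 mitosis genes outside the module, 107 of them measured, was lower on average in KO for 78 genes, with a median of -0.11, where 45.5% of genes above background were lower. Without KO replicate 1, 69 were lower with a median of -0.05, where 7177 of 16137 genes above background were lower. At an unadjusted p under 0.05, 5 were lower and 3 higher, and 0 passed the adjusted threshold. Of genes above background, 1.91% were lower and 4.99% higher at that p, so the 3 higher genes are no larger a share than the background gives. The smallest p among the lower ones belonged to Wee1, the kinase that restrains CDK1 (-0.24), Sass6, of the centriole cartwheel (-0.33), and Cenpo, a centromere protein gene (-0.20). Those among the higher ones were Cks2, a CDK-binding subunit (0.34), Ube2s, which extends ubiquitin chains on the anaphase-promoting complex (0.45), and Mis18a, which loads CENP-A (0.35). Ube2s had 12.04, 12.01, 12.09 and 11.93 in KO, against 11.70, 11.52, 12.09, 11.43 and 11.10 in WT. The KO arrays spanned 0.16, and WT replicate 3 equalled the highest of them. Mean deviations of the wider list were -0.25, -0.01, 0.08 and -0.02 in KO replicates 1 to 4, against -0.12, 0.28, 0.24, 0.00 and -0.20 in WT replicates 1 to 5. WT replicates 2 and 3 were again highest by this mean. Both lay above the other 7 arrays in 42 of the 107 genes (39.3%), against 81.6% of the module and 4.57% of genes above background. Without WT replicates 2 and 3, chosen for being high, 52 of the 107 were lower, where 6965 of 16137 genes above background were.

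DNA replication genes, active in S phase, were read from 48 measured genes. Of these 33 were lower on average in KO, with a median of -0.03, and 0 had an unadjusted p under 0.05, where 45.5% of genes above background were lower. The count depended on single arrays. Without KO replicate 1, 20 of 48 were lower with a median of 0.03. This is near the background, where 7177 of 16137 genes were lower with a median of 0.02. Without WT replicate 5, 42 were lower with a median of -0.10, where 7883 of the 16137 genes above background were lower. Their mean deviation was highest in WT replicate 2 (0.22), KO replicate 3 (0.17) and WT replicate 3 (0.13), and lowest in KO replicate 1 (-0.30) and WT replicate 5 (-0.28). In 14.6% of these genes WT replicates 2 and 3 were both above the other 7 arrays. Among 24 G1 and quiescence genes 11 were lower and 13 higher in KO, with WT replicate 3 lowest at -0.17. Cdkn1a, the p21 inhibitor of cyclin-dependent kinases, and Btg2, an antiproliferative gene, were the 2 of these with an unadjusted p under 0.05 and are named after their values were seen. Cdkn1a had 13.04, 13.59, 12.54 and 12.37 in KO, against 12.93, 11.44, 10.91, 12.28 and 12.01 in WT. WT replicates 2 and 3 were its lowest arrays, and the difference was 0.97 (unadjusted p = 0.0492, adjusted p = 0.786 in limma). Btg2 had 10.66, 10.12, 10.15 and 10.56 in KO, against 10.14, 9.08, 9.12, 10.07 and 10.12 in WT. Its WT replicates 2 and 3 were lowest as well, with a difference of 0.67 (unadjusted p = 0.0438, adjusted p = 0.786 in limma). Of all genes, 3.82% were higher in KO at an unadjusted p under 0.05.

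**Figure D5:**
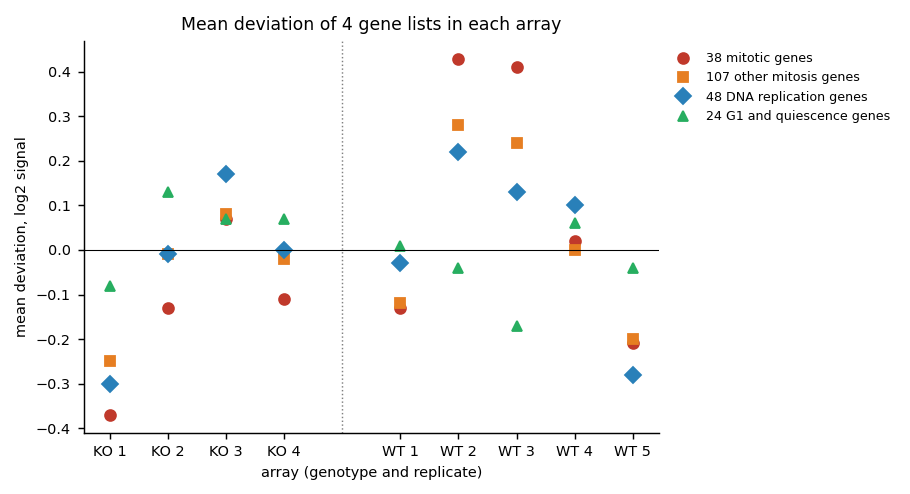
Mean deviation of the log2 signal from each gene's mean over 9 arrays for 4 gene lists in each array. The 38 mitotic genes, the 107 other mitosis genes and the 48 DNA replication genes are lowest in KO 1 and WT 5, and the mitotic lists are highest in WT 2 and WT 3.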

How the data were processed

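RNA of LSK cells from 9 mice was hybridised, 1 mouse to an array, to whole-transcript arrays of Affymetrix. No batch is named in the labels. The deposited values, 1 per probeset and array, are read as log2 signals that the authors summarised and normalized. The values run from 1.84 to 19.45, as log2 signals do, but their log base, background correction and normalization are not stated. Partek 6.6 is named in the submitters' processing notes. Of 72688 probesets, 6732 controls were set aside. The brightest probeset by mean over 9 arrays stood for each gene, from 30604 probesets with exactly 1 symbol, and 821 gene symbols were updated through RefSeq. Values carry 2 decimals, and 7779 genes hold 1 value in at least 5 arrays.

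The test of KO against WT was limma's, version 3.58.1 under R 4.3.3 (eBayes without trend, Benjamini-Hochberg over all 30142 genes, threshold 0.05), tested on simulated data. Exact permutation over the 126 splits was added for single genes, two-sided. The median standard error was 0.18 for members and 0.12 for genes above background on the same arrays. Alternatives were other normalizations, filters, variance models, array weights, probeset means, a replicate block and left-out arrays. Per-array values were printed for Mki67 and, in each class, for the gene with the smallest p and that with the highest difference; others are examples chosen after their values were seen. From the wider mitosis list the 3 smallest p per direction were named. Members and lists were chosen with earlier results of these data known. Same-numbered KO and WT arrays had deviations correlating at -0.18, 0.15, -0.01 and 0.27, and arrays of different numbers at -0.37 to 0.35. The labels name no pairs, so the numbers were not taken as pairs. Whether arrays of the same number were handled together is not stated.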

Additional observations from a re-analysis of the deposited data

Results flagged for a closer look

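Arrays far from the others of their genotype were looked for in 80 groups of values, those of the 38 members, Abi1 and Kit in each genotype. By Dixon's criterion 6 stood out, where chance alone flags about 1 in 20 groups. KO replicate 1 was low for Espl1, at 7.94 with the other KO arrays at 8.93 to 9.11, and for Kit, at 13.82 with the others at 14.53 to 14.58. WT replicate 2 was high for Bub1b, at 10.09 with the other WT arrays at 9.34 to 9.42. WT replicate 3 was low for Kit, at 14.39 with the others at 14.70 to 14.78. The remaining gaps were small: Birc5 was 8.85 in KO replicate 3 with the other KO arrays all at 8.78, and Tpx2 was 11.29 in KO replicate 4 with the others at 11.44 to 11.47.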

How the results depend on the processing

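Over 19 alternatives, 0 mitotic genes passed limma's adjusted p of 0.05 (smallest adjusted p 0.665 to 0.964 over the 18 planned). Abi1 passed in all 19 and was the 1 gene past it in 18, while array weights gave 2, Abi1 and Igll1. The number of members with lower means in KO ran from 30 to 35 as single arrays were left out. It was 24 with WT replicates 2 and 3 both out, where 10661 of all 30142 genes were lower. That setting was chosen after seeing the data because these arrays read highest, and it had to move differences upward. The number lower at an unadjusted p under 0.05, 4 in the fit reported, was 1 with quantile normalization or array weights. It was 1 to 7 as single arrays were left out, and 2 without KO replicate 1 and WT replicate 5. With the replicate block it was 17, with differences equal to those without WT replicate 5, whose number no KO array shares. In the fit that left out WT replicate 5 and had no block it was 6, and the cause was not tested. The median difference ran from -0.342 to -0.164 without single arrays and was -0.329 with the block. Signs changed for 11 members. With WT replicates 2 and 3 left out, differences were 0.094 for Aurka, 0.108 for Bub3, 0.169 for Ccna2, 0.056 for Cenpa, 0.049 for Kif15, 0.079 for Kif20a, 0.215 for Ndc80, 0.014 for Prc1 and 0.083 for Tpx2, where fewer WT arrays remain. Plk4 was -0.006 with median centring, -0.012 with array weights, -0.092 with the block and -0.115 without KO replicate 1 and WT replicate 5. Ube2c was -0.029, -0.012 and -0.084 with array weights, with the block and without these arrays. With single arrays, or KO replicate 1 and WT replicate 5 together, left out, differences ran from -0.118 to 0.048 for Aurka, from -0.295 to 0.014 for Bub3, from -0.162 to 0.048 for Ccna2, from -0.268 to 0.011 for Kif20a, from -0.17 to 0.052 for Ndc80, from -0.115 to 0.17 for Plk4 and from -0.084 to 0.212 for Ube2c.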
